A study of Mus musculus with 36 samples.

Results

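The 10 genes described here are members of the Bcl2 family that decide between survival and death of a cell, followed while mouse B cells became macrophages in B cell to macrophage transdifferentiation (BMT). They were chosen by name, as the family members best known in blood cells, with earlier results of these data known. They were looked up by symbol among the 40354 genes of the count tables. All 10 were found there and in the tables of log2 values, and all 10 were among the 17277 genes that passed the low-count filter. Of these, 5 encode pro-survival proteins (Bcl2, Bcl2l1, Mcl1, Bcl2a1b and Bcl2a1d), 2 encode effectors (Bax and Bak1) and 3 encode BH3-only proteins (Bcl2l11, Bbc3 and Pmaip1).

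Proteins of the Bcl2 family act at the outer membrane of mitochondria. Once activated, the effectors Bax and Bak1 form pores through which cytochrome c escapes, which sets off the caspases, while pro-survival members hold the effectors in check and BH3-only members bind and neutralise the pro-survival members or activate the effectors. Developing B cells depend on Bcl2l1 and Mcl1 and on signals from interleukin-7 (IL-7), and Mcl1 and the Bcl2a1 genes are known as survival genes of myeloid cells.

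B cells taken from the bone marrow of C57BL/6J mice with magnetic beads were infected with a retrovirus encoding C/EBPα, a transcription factor of myeloid cells, fused to the estrogen receptor, together with human CD4 as a surface tag for enriching infected cells. The construct was wild-type (WT) or had alanine (R35A) or lysine (R35K) in place of a single arginine of C/EBPα. RNA was sequenced before estradiol was added (0 hpi, hours post induction) and 1, 3, 6 and 18 hours as well as 120 hours after it, which gives 18 groups of construct and time with 2 biological replicates each, 36 libraries in all. All groups, the 0 hpi groups included, carried a construct and were plated on inactivated mouse embryo fibroblast feeders with IL-7. For transdifferentiation the methods name IL-7, IL-3, FLT-3, CSF-1 and SCF, without saying whether the 0 hpi cells received them all. They add that medium without IL-7 was renewed during the culture, so at 120 hpi the time since induction and the change of medium cannot be told apart. The fusion protein is driven by a retrovirus in a pool of primary cells, not by the cells' own gene, and there was no group without a construct or with estradiol alone. Libraries of R35K cells have tables of their own, so in direct comparisons of levels the R35K construct and its set of libraries cannot be told apart. The sources used here give no age of the mice and do not say which mice each replicate came from.

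Between 13044456 and 23131776 reads were counted on genes in a library, with a median of 15471229.5. The summed level of 10 B cell markers was 3758 to 4124 CPM (read counts put on 1 library size) at 0 hpi and 130.4 to 197 CPM at 120 hpi, and that of 10 macrophage markers was 71.0 to 77.6 CPM at 0 hpi and 21974 to 34311 CPM at 120 hpi, so the cells carried the markers of the labelled B cells at the start. Markers of the fibroblast feeders summed to 1352 to 1465 CPM at 0 hpi and 184 to 616 CPM at 120 hpi, where Lum was at 0 in every group. In between they were higher, at 2649.5 to 3109.7 CPM at 1 hpi, and at 18 hpi at 3380.3 and 3321 CPM in WT, 2734 and 2712 CPM in R35A and 2086 and 2102 CPM in R35K cells, and 10 of 10 had risen in WT cells at 3 hpi. Higher values of Mcl1, Bcl2l1, Pmaip1 and Bcl2l11 than at 0 hpi, given below, fall at the same times, and the part of feeder RNA in them was not tested. Granulocyte markers summed to 48.8 to 63.6 CPM at 0 hpi and 2171 to 2729 CPM at 120 hpi, while by then 7 of the 9 that were tested had fallen in WT cells and 2 had risen. The T and NK cell markers summed to 60.1 to 109 CPM at 120 hpi, with 6 of 10 at 0 in every group (Cd3e, Cd3g, Cd8a, Ncr1, Nkg7 and Gzma), the dendritic cell markers to 205 to 396 CPM, and the erythroid markers to 1.70 CPM or less at 0, 1 and 120 hpi. In RNA from whole cultures, fewer cells of a type and less RNA per cell cannot be told apart.

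Levels are given in CPM, the share of a gene in the library's reads scaled with its TMM factor, for replicate 1 and replicate 2. A change was called when it was at least 1.5-fold in either direction with a Benjamini-Hochberg adjusted p at or under 0.05 over all 17277 genes, in edgeR's quasi-likelihood test fitted to the 36 libraries together, and "rose" and "fell" are used of called changes. Log2 changes carry their standard error (SE).

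The first question of the design is which genes change after induction. In WT cells, 2 of the 10 genes were called against 0 hpi after 1 hour, where 19.7% of all genes tested were called, 2 genes after 3 hours (23.2% of all genes), 2 after 6 hours (29.6%), 4 after 18 hours (46.7%) and 7 after 120 hours (61.8%). For R35A cells the counts over the same times were 2 (37.1% of all genes), 4 (36.7%), 2 (37.4%), 3 (42.4%) and 7 (61.8%). For R35K cells they were 3 (31.9% of all genes), 3 (31.7%), 4 (33.2%), 3 (38.5%) and 7 (62.2%). With 10 genes, these shares lay close enough to the backgrounds that the number of calls is no result about the family. At 120 hpi 6 members were higher and 1 was lower in each construct, while of all genes 25.2% were called higher and 36.5% lower in WT, 26.5% and 35.3% in R35A and 26.7% and 35.5% in R35K cells. Bcl2a1b and Bcl2a1d, among the higher members in each construct, had 3 or fewer counts in a library at 0 hpi and share sequence with each other. They passed the low-count filter only through induced libraries, so they could be called in no direction but higher. The median log2 change of the members, with these 2 included, was 1.29 in WT, 0.95 in R35A and 0.81 in R35K cells, while the median over all genes was −0.23, −0.18 and −0.20. Since these 2 genes pull the members' medians up, nothing is read from the size of the medians or from their order among constructs. The levels of the 10 genes by time show that, in CPM, Bcl2, Mcl1, Bcl2a1b, Bcl2a1d, Bak1 and Bbc3 moved most between 18 and 120 hpi in each construct. For that step 60.5% of all genes were called in WT, 53.8% in R35A and 52.7% in R35K cells. Bcl2l1 and Bcl2l11 moved more before 18 hpi in both mutants.

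**Figure D1:**
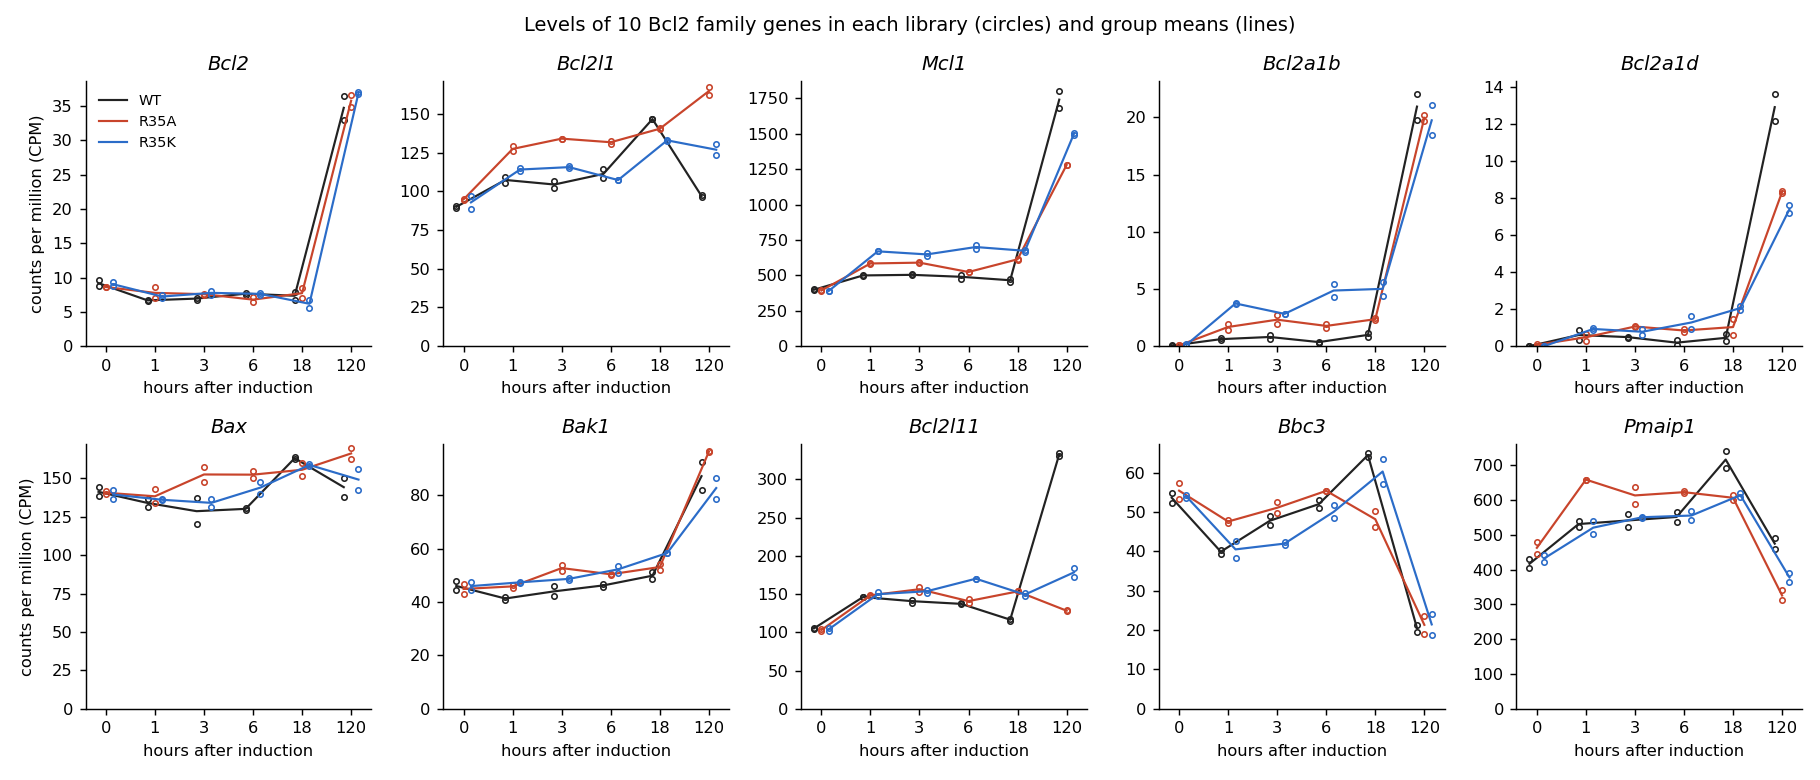
Levels of the 10 genes in CPM (y axes, each starting at 0, with a scale of its own) against hours after induction (x axes, equally spaced, not to scale) in WT (black), R35A (red) and R35K (blue) cells. Circles are libraries and lines join the means of 2 replicates, and Mcl1 in WT cells goes from 398 CPM at 0 hpi to 1742 CPM at 120 hpi.

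Mcl1 encodes a short-lived pro-survival protein that binds Bak1 and the BH3-only proteins, and lies at chr3:95658788-95663176 on the plus strand of mm10. It rose in all 3 constructs by 120 hpi, and earlier in R35K and, at 3 and 18 hpi, in R35A cells. At 0 hpi its level was 394 and 403 CPM in WT, 392.9 and 393 CPM in R35A and 389.9 and 389.6 CPM in R35K cells. At 120 hpi it was 1681 and 1803 CPM in WT, 1278 and 1282 CPM in R35A and 1493 and 1509 CPM in R35K cells. All 6 libraries at 120 hpi were above every earlier library, and the constructs did not overlap among themselves, with WT highest and R35A lowest. The log2 change was 2.13 (SE 0.03, 4.37-fold, adjusted p = 1.41e-49) in WT, 1.70 (3.26-fold) in R35A and 1.94 (3.85-fold) in R35K cells.

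Between 1 and 18 hpi WT cells had the lowest level instead of the highest, while R35K stayed above R35A cells. At 1 hpi Mcl1 was at 500.1 and 499 CPM in WT, 585 and 583 CPM in R35A and 670.3 and 669 CPM in R35K cells. R35K libraries were highest and WT libraries lowest at each of 1, 3, 6 and 18 hpi, with no overlap. In R35K cells Mcl1 rose at each of these times, by 0.78, 0.73, 0.85 and 0.79 on the log2 scale, and in R35A cells it rose at 3 hpi (0.59) and 18 hpi (0.64). The R35A rise at 3 hpi, 1.501-fold, stood at the threshold and was not called without the low-count filter, with the WT and R35A table fitted alone or without R35A replicate 1 at 3 hpi, while that at 1 hpi (0.57, 1.49-fold) was called with DESeq2. In WT cells the log2 values of 0.33, 0.34, 0.30 and 0.22 passed the adjusted p alone. The difference in change against WT at 18 hpi, which tests the constructs' responses against each other, was 0.42 (SE 0.05, adjusted p = 9.30e-11) for R35A and 0.56 (SE 0.05, adjusted p = 1.94e-15) for R35K cells, both under 1.5-fold. By 120 hpi it was −0.42 (adjusted p = 2.71e-11) and −0.18 (adjusted p = 0.00139). Summed macrophage markers followed the same order at 1 hpi, with 899 and 883 CPM in WT, 3827 and 3809 CPM in R35A and 8264 and 8128 CPM in R35K cells, and their part in the Mcl1 levels was not tested.

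Bcl2, the founding pro-survival member, lies at chr1:106538178-106714274 on the minus strand. Its level stayed under 10 CPM until 18 hpi and rose in the 3 constructs by 120 hpi. At 0 hpi it was at 9.60 and 8.76 CPM in WT, 8.66 and 8.57 CPM in R35A and 8.70 and 9.33 CPM in R35K cells. By 120 hpi it was at 33.0 and 36.5 CPM in WT, 36.7 and 34.9 CPM in R35A and 37.1 and 36.7 CPM in R35K cells. The late libraries were all above the early ones, and those of WT and R35A cells overlapped. The log2 change was 1.92 (SE 0.10, 3.77-fold, adjusted p = 3.27e-25) in WT, 2.05 (4.15-fold) in R35A and 2.03 (4.09-fold) in R35K cells. Direct differences from WT at 120 hpi were 0.04 (SE 0.08, adjusted p = 0.702) for R35A and 0.09 (SE 0.08, adjusted p = 0.403) for R35K cells. Before that, the WT level was 6.57 and 6.76 CPM at 1 hpi, below both 0 hpi libraries, with a log2 value of −0.46 (SE 0.13, adjusted p = 0.00166) that did not reach 1.5-fold.

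Bcl2l1 encodes the pro-survival protein Bcl-xL (chr2:152780668-152831728, minus strand). It peaked at 18 hpi in WT cells and at 120 hpi in R35A cells. In WT cells its level went from 89.2 and 90.7 CPM at 0 hpi to 147 and 147 CPM at 18 hpi, and then to 96.3 and 97.8 CPM at 120 hpi. In R35A cells it went from 94.5 and 95.1 CPM at 0 hpi to 141 and 140.3 CPM at 18 hpi and to 167 and 162 CPM at 120 hpi. In R35K cells the 0 hpi libraries were at 88.5 and 97.2 CPM, the 18 hpi libraries at 132 and 133 CPM and the 120 hpi libraries at 131 and 123 CPM.

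The constructs differed at 18 hpi by little and at 120 hpi by more, when all R35A libraries were above all R35K libraries and these above all WT libraries. Bcl2l1 rose in WT cells by 18 hpi (0.71, SE 0.04, 1.63-fold, adjusted p = 3.66e-22), fell from 18 to 120 hpi (−0.60, 1.51-fold lower, adjusted p = 7.11e-19, with 60.5% of all genes called for that step), and rose in R35A cells by 120 hpi (0.80, SE 0.04, 1.74-fold, adjusted p = 6.11e-25). The WT value at 120 hpi against 0 hpi was 0.11 (SE 0.05, adjusted p = 0.0245) and turned to −0.09 without the low-count filter, so no direction is read from it. At 120 hpi R35A cells had 1.70-fold more Bcl2l1 RNA than WT cells (log2 0.76, SE 0.04, adjusted p = 3.42e-22), and the difference in change was 0.69 (SE 0.06, 1.61-fold, adjusted p = 4.65e-14). For R35K cells the difference in change from WT was 0.34 (SE 0.06, adjusted p = 1.28e-05), under 1.5-fold.

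Bcl2a1b and Bcl2a1d belong to a cluster of near-identical mouse genes on chromosome 9 that encode the pro-survival protein A1. Bcl2a1b lies at chr9:89199209-89207827 on the plus strand and Bcl2a1d at chr9:88723285-88731914 on the minus strand, with Bcl2a1a between them. Of the 768 windows of 50 bases (the read length) in Bcl2a1b transcripts, 442 (57.6%) also occur in other Bcl2a1 genes, and in Bcl2a1d 647 of 814 (79.5%) do. With Gm29094, a transcript that overlaps Bcl2a1b on the same strand, 608 of the 768 windows (79.2%) of Bcl2a1b are shared. Reads from such windows cannot be assigned to 1 gene, so the split between the 2 genes is uncertain. The study's methods name the GeneCounts mode of STAR and do not spell out how reads with several matches were treated. If these were left out, the counts rest on windows found in no other gene. These are 160 of 768 in Bcl2a1b and 167 of 814 in Bcl2a1d, and the levels given below would be too low. The sequence upstream of the genes is shared as well. Stretches of 100 bases upstream of the starts (RefSeq sequence, GRCm38.p6, gene strand, 5′ to 3′) are shown because these genes, at 3 or fewer counts in a library before induction, moved in the same direction. They are aligned on GAGGAAGT, in capitals, a core read by PU.1 and other Ets factors, whose first base lies 148 bases before the RefSeq start of Bcl2a1b and 104 bases before that of Bcl2a1d.

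Bcl2a1b, chr9:89199065-89199164: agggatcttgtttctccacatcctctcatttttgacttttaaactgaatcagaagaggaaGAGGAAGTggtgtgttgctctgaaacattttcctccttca

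Bcl2a1d, chr9:88731915-88732014: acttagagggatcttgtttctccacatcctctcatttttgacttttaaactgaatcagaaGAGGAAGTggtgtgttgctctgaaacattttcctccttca

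From the capitals to the end, both stretches and that of Bcl2a1a are 1 identical sequence, and the whole stretch of Bcl2a1a is the one printed for Bcl2a1b. GAGGAAGT was searched on both strands in 32851 promoter windows of 300 bases (250 before to 50 after the RefSeq start), after these promoters had been read, and 1052 windows (3.2%) hold it. Among the 9 members with a promoter entry, Bcl2a1b, Bcl2a1d and Bak1 (on the other strand) hold it. TGATGNAA, an element read by C/EBP and ATF factors, occurs in 3.97% of windows and in those of Bcl2a1b and Bcl2a1d. TTGCNNAA, from the C/EBP palindrome, occurs in 10.8% of windows and in none of the members. A match is a string of letters and no evidence of binding.

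Both Bcl2a1 genes went from 3 or fewer reads in a library at 0 hpi to at least 86 reads at 120 hpi, and Bcl2a1b was higher in the mutants than in WT cells from 1 to 18 hpi. At 0 hpi Bcl2a1b had 1 and 0 counts in WT, 1 and 1 counts in R35A and 3 and 1 counts in R35K libraries. At 120 hpi it was at 19.8 and 22.1 CPM in WT, 20.2 and 19.7 CPM in R35A and 21.0 and 18.4 CPM in R35K cells. The 120 hpi libraries of the 3 constructs overlapped. The ratio of 120 hpi to 0 hpi was 598 in WT cells (95% exact interval 107 to 23679, for counting error only). It was 336 in R35A (92.5 to 2783) and 163 in R35K cells (63.3 to 601). The ratios rest on 1, 2 and 4 counts summed over the 0 hpi group, and the intervals overlap, so no order of the constructs is read from them.

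In between, the constructs stood apart. At 1 hpi Bcl2a1b was at 0.526 and 0.688 CPM in WT, 1.45 and 1.89 CPM in R35A and 3.67 and 3.78 CPM in R35K cells. At 6 hpi it was at 0.393 and 0.307 CPM in WT, 1.95 and 1.58 CPM in R35A and 4.27 and 5.44 CPM in R35K cells. At 18 hpi it was at 1.15 and 0.810 CPM in WT, 2.25 and 2.46 CPM in R35A and 5.61 and 4.40 CPM in R35K cells. At each of 1, 3, 6 and 18 hpi both R35K libraries were above both R35A libraries, and these above both WT libraries.

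Compared directly, R35A exceeded WT cells 2.71-fold at 1 hpi (log2 1.44, SE 0.34, adjusted p = 0.000275), 2.91-fold at 3 hpi, 4.91-fold at 6 hpi (log2 2.30, SE 0.38, adjusted p = 1.07e-06) and 2.42-fold at 18 hpi. R35K exceeded WT cells 6.03-fold at 1 hpi (log2 2.59, SE 0.28, adjusted p = 2.38e-11), 3.54-fold at 3 hpi, 13.7-fold at 6 hpi and 5.14-fold at 18 hpi. R35K exceeded R35A cells 2.23-fold at 1 hpi (adjusted p = 2.20e-05), 2.79-fold at 6 hpi and 2.12-fold at 18 hpi, and the log2 value of 0.29 at 3 hpi did not pass (adjusted p = 0.357). At 120 hpi the log2 differences from WT were −0.07 (SE 0.11, adjusted p = 0.666) and −0.08 (SE 0.11, adjusted p = 0.603). Since the 0 hpi counts are at or under 3 in a library, the difference in change of Bcl2a1b from 0 hpi had an SE of 2.03 (R35A) and 2.04 (R35K) against WT cells on the log2 scale at 1 hpi, too wide to show whether the changes differed.

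**Figure D2:**
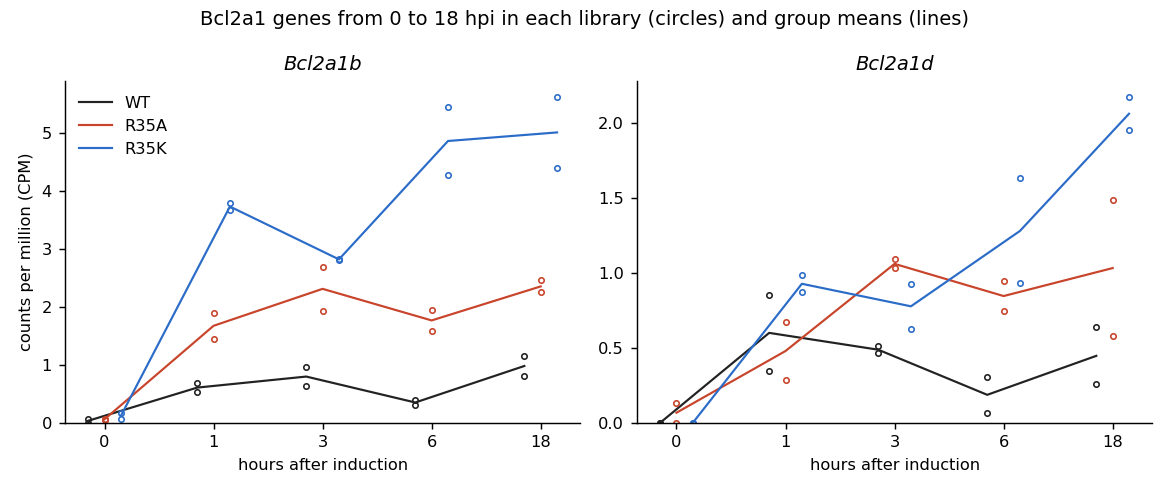
Levels of Bcl2a1b and Bcl2a1d in CPM (y axes, each starting at 0) from 0 to 18 hpi (x axes, hours after induction, equally spaced, not to scale) in WT (black), R35A (red) and R35K (blue) cells. Circles are libraries and lines join group means, and at 18 hpi the Bcl2a1b libraries lie between 4.40 and 5.61 CPM in R35K and between 0.810 and 1.15 CPM in WT cells.

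Bcl2a1d was counted less often. At 0 hpi it had 0 and 0 counts in WT, 2 and 0 counts in R35A and 0 and 0 counts in R35K libraries. At 18 hpi it had 4 and 11 counts in WT, 9 and 29 counts in R35A and 33 and 34 counts in R35K libraries. By 120 hpi it was at 12.2 and 13.7 CPM in WT, 8.27 and 8.42 CPM in R35A and 7.18 and 7.64 CPM in R35K cells. Here WT libraries were highest, R35A libraries lower and R35K libraries lowest, without overlap. Against 3 counts over the group at 0 hpi, the level at 120 hpi was at least 123-fold higher in WT and at least 81.8-fold higher in R35K cells, and the ratio in R35A cells was 141 (95% exact interval 38.5 to 1169).

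R35K cells exceeded WT cells at 6 hpi (log2 2.72, SE 0.56, adjusted p = 5.68e-05) and 18 hpi (log2 2.16, SE 0.41, adjusted p = 1.43e-05). At 120 hpi Bcl2a1d was 1.55-fold lower in R35A (log2 −0.63, SE 0.17, adjusted p = 0.00184) and 1.74-fold lower in R35K cells (log2 −0.80, SE 0.18, adjusted p = 0.000176) than in WT cells. The R35A call at 120 hpi was lost with limma on the log2 values, without the low-count filter and without WT replicate 2, and that of R35A over WT at 18 hpi (log2 1.23, adjusted p = 0.0380), where the libraries overlap, was lost with DESeq2, with limma, without WT replicate 1 and without R35A replicate 2. Summed over Bcl2a1a, Bcl2a1b, Bcl2a1c and Bcl2a1d, which avoids the split among these 4 genes but not that with Gm29094, the level at 120 hpi was 48.2 and 51.8 CPM in WT, 39.5 and 39.2 CPM in R35A and 38.2 and 34.8 CPM in R35K cells. At 18 hpi the sum was 1.72 and 1.85 CPM in WT, 3.34 and 4.86 CPM in R35A and 9.10 and 7.78 CPM in R35K cells. If reads with several matches were left out of the counts, the sum does not bring them back.

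Levels of different genes can be set side by side only per length. With CPM divided by the length of each gene's joined exons, Mcl1 made up the largest share of the summed level of the 5 pro-survival genes in 18 of 18 groups, from 79.8% in WT cells at 18 hpi to 88.6% in WT cells at 120 hpi. Bcl2l1 held 18.8% of the sum in WT cells at 18 hpi and 3.68% at 120 hpi. Bcl2a1b reached 5.45% in R35A cells at 120 hpi, Bcl2a1d 2.60% in WT cells at 120 hpi, and Bcl2 stayed between 0.286% and 0.871%. The lengths include the windows that Bcl2a1b and Bcl2a1d share with other genes. If reads from those windows were left out of the counts, the Bcl2a1 shares are too low and the Mcl1 share is too high. With the length of the longest transcript, Mcl1 remained the largest in 18 of 18 groups, at 69.4% to 86.0%.

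**Figure D3:**
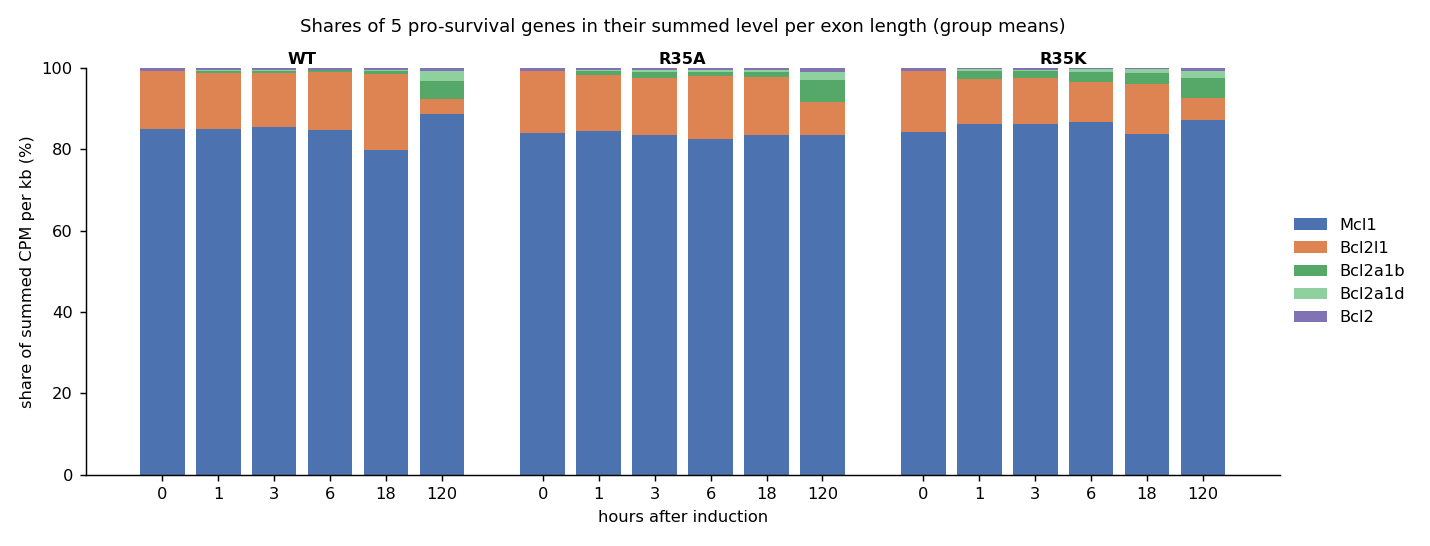
Share of each of the 5 pro-survival genes (y axis, percent) in their summed level per kilobase of joined exons, as the mean of 2 replicates, in WT, R35A and R35K cells at 0 to 120 hpi (x axis). Mcl1 (blue) fills 79.8% to 88.6% of each bar, Bcl2l1 (orange) is smallest in WT cells at 120 hpi (3.68%), and the Bcl2a1 genes (green) are widest in the 120 hpi bars. Lengths include windows that the Bcl2a1 genes share with other genes, so their shares may be too low.

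Bax is an effector that waits in the cytosol of healthy cells (chr7:45461697-45466898, minus strand). No comparison called it. Its level was 144 and 138 CPM at 0 hpi, 163 and 164 CPM at 18 hpi and 150.4 and 138 CPM at 120 hpi in WT cells. Over the 18 groups the highest mean (R35A at 120 hpi, 166 CPM) was 1.29 times the lowest (WT at 3 hpi, 129 CPM), and in the order of levels 15 of 17 neighbouring groups overlapped. The log2 difference between R35A and WT cells was 0.24 at 3 hpi (adjusted p = 1.96e-05) and 0.20 at 120 hpi (SE 0.05, adjusted p = 0.000532), both well under 1.5-fold.

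Bak1, the effector resident on mitochondria (chr17:27019810-27029009, minus strand), rose late in every construct. At 0 hpi it was at 47.7 and 44.4 CPM in WT, 43.1 and 46.7 CPM in R35A and 47.4 and 44.6 CPM in R35K cells. At 120 hpi it was at 92.5 and 81.9 CPM in WT, 96.6 and 96.2 CPM in R35A and 86.7 and 78.8 CPM in R35K cells. All 120 hpi libraries were above all others, and WT and R35K libraries overlapped there. The log2 change was 0.92 (SE 0.06, 1.90-fold, adjusted p = 8.31e-21) in WT cells. The rise was 2.14-fold in R35A cells (SE 0.06 on the log2 scale), and the log2 change was 0.85 (SE 0.06, 1.80-fold) in R35K cells. The gene Ggnbp1 overlaps Bak1 on the opposite strand and shares 426 of its 2495 windows of 50 bases. The libraries were stranded, but the strand setting of the counting is not given in the sources used here, so reads from the overlap may belong to either gene.

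Bcl2l11 encodes Bim, a BH3-only protein that binds every pro-survival member and is held down by cytokine signals in many blood cells (chr2:128126038-128162547, plus strand). Of the 10 genes it had the largest log2 difference between R35A and WT cells at 120 hpi. At 0 hpi it was at 104 and 106 CPM in WT, 104 and 102.0 CPM in R35A and 106 and 101.6 CPM in R35K cells. By 120 hpi it was at 335 and 331 CPM in WT, 127 and 129 CPM in R35A and 172 and 184 CPM in R35K cells. WT libraries stood far above the others, and R35A libraries lay lowest, below their own 1 to 18 hpi libraries.

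In WT cells Bcl2l11 rose by 1.66 on the log2 scale by 120 hpi (SE 0.04, 3.17-fold, adjusted p = 1.40e-41), with most of it after 18 hpi, when the libraries were at 118 and 115 CPM. It rose in R35K cells by 0.78 (SE 0.04, 1.72-fold, adjusted p = 1.41e-25). In R35A cells the value was 0.32 (SE 0.04, adjusted p = 2.64e-10), under 1.5-fold. At 120 hpi the level was 2.59-fold lower in R35A than in WT cells (log2 −1.38, SE 0.04, adjusted p = 4.83e-36) and 1.87-fold lower in R35K than in WT cells (log2 −0.90, SE 0.04, adjusted p = 6.23e-28). The difference in change from WT was −1.34 (SE 0.05, adjusted p = 1.76e-27) for R35A and −0.88 (SE 0.05, adjusted p = 9.39e-20) for R35K cells. R35K and R35A cells differed from each other by 0.46 in the change (SE 0.06, adjusted p = 1.33e-08), under 1.5-fold.

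Earlier the sign was the other way. At 18 hpi Bcl2l11 was at 154 and 153 CPM in R35A cells and 151 and 147 CPM in R35K cells, above both WT libraries, and the difference in change from WT was 0.43 (SE 0.05, adjusted p = 7.04e-09) and 0.37 (SE 0.05, adjusted p = 1.25e-07), both under 1.5-fold. Rises against 0 hpi were called at 3 hpi in R35A (0.60) and at 6 hpi in R35K cells (0.71), the first of which was lost without the low-count filter, with the table fitted alone or without R35A replicate 2 at 3 hpi. The feeder fibroblast markers, whose part was not tested, summed at 120 hpi to 205 and 184 CPM in WT, 616 and 615 CPM in R35A and 528 and 445 CPM in R35K cells.

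**Figure D4:**
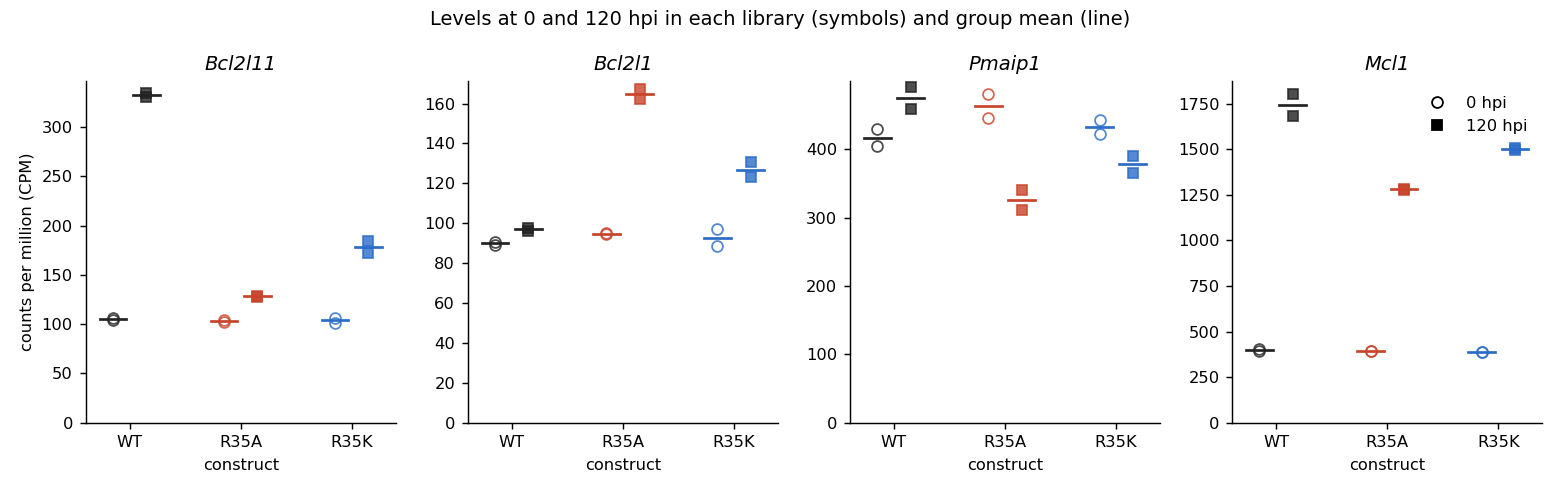
Levels in CPM (y axes, each starting at 0) of Bcl2l11, Bcl2l1, Pmaip1 and Mcl1 at 0 hpi (open circles) and 120 hpi (filled squares) in WT, R35A and R35K cells (x axes). Each symbol is a library and each line the mean of 2, and Bcl2l11 at 120 hpi has a mean of 333 CPM in WT, 128 CPM in R35A and 178 CPM in R35K cells after near-equal levels at 0 hpi.

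Bbc3 encodes Puma, a BH3-only protein induced by p53 (chr7:16308393-16318205, plus strand), and was the only one of the 10 genes that fell in every construct by 120 hpi. At 0 hpi it was at 54.9 and 52.4 CPM in WT, 57.4 and 53.5 CPM in R35A and 53.5 and 54.4 CPM in R35K cells. At 120 hpi it was at 19.6 and 21.4 CPM in WT, 23.6 and 19.03 CPM in R35A and 24.1 and 18.8 CPM in R35K cells. The late libraries were all below the early ones and overlapped between constructs. The log2 change was −1.39 (SE 0.08, 2.62-fold lower, adjusted p = 7.90e-22) in WT, −1.38 (2.61-fold lower) in R35A and −1.33 (2.52-fold lower) in R35K cells. At 18 hpi the WT level had been 65.1 and 63.9 CPM, the highest of all groups, against 46.1 and 50.3 CPM in R35A cells, and the difference in change was −0.46 (SE 0.09, adjusted p = 6.44e-05), under 1.5-fold.

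Pmaip1 encodes Noxa, a BH3-only protein that binds Mcl1 and A1 and is also a p53 target. It lies on chromosome 18. In WT cells its level went from 429.6 and 405 CPM at 0 hpi to 693 and 741 CPM at 18 hpi and to 459 and 491 CPM at 120 hpi. In R35A cells it went from 480.2 and 446 CPM to 614 and 599.9 CPM and to 340.3 and 312 CPM. In R35K cells it went from 442 and 423 CPM to 609 and 619.7 CPM and to 366 and 390.2 CPM. The 18 hpi libraries of WT cells were the highest of all, and the 120 hpi libraries of both mutants were below their own 0 hpi libraries.

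Pmaip1 rose in WT cells by 18 hpi (0.78, SE 0.04, 1.72-fold, adjusted p = 5.96e-23) and fell from 18 to 120 hpi in WT (−0.59, 1.51-fold lower), R35A (−0.90, 1.86-fold lower; 53.8% of all genes were called for this step) and R35K cells (−0.70, 1.63-fold lower; 52.7% of all genes). Its value at 120 hpi against 0 hpi was 0.19 in WT cells (adjusted p = 0.000153), which turned to −0.01 without the low-count filter, and −0.51 in R35A cells (adjusted p = 2.82e-15), which was called without the filter, with the table fitted alone or without R35A replicate 1 at 120 hpi. The difference in change between R35A and WT cells at 120 hpi was −0.69 (SE 0.06, 1.62-fold lower, adjusted p = 1.17e-13). For R35K cells it was −0.38 (SE 0.06, adjusted p = 2.24e-06), under 1.5-fold. Compared directly at 120 hpi, R35A (mean 326 CPM) and WT cells (mean 475 CPM) differed by under 1.5-fold and were not called. At 0 hpi the R35A mean was already higher, at 463 against 417 CPM (edgeR, unadjusted p = 0.00121).

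**Figure D5:**
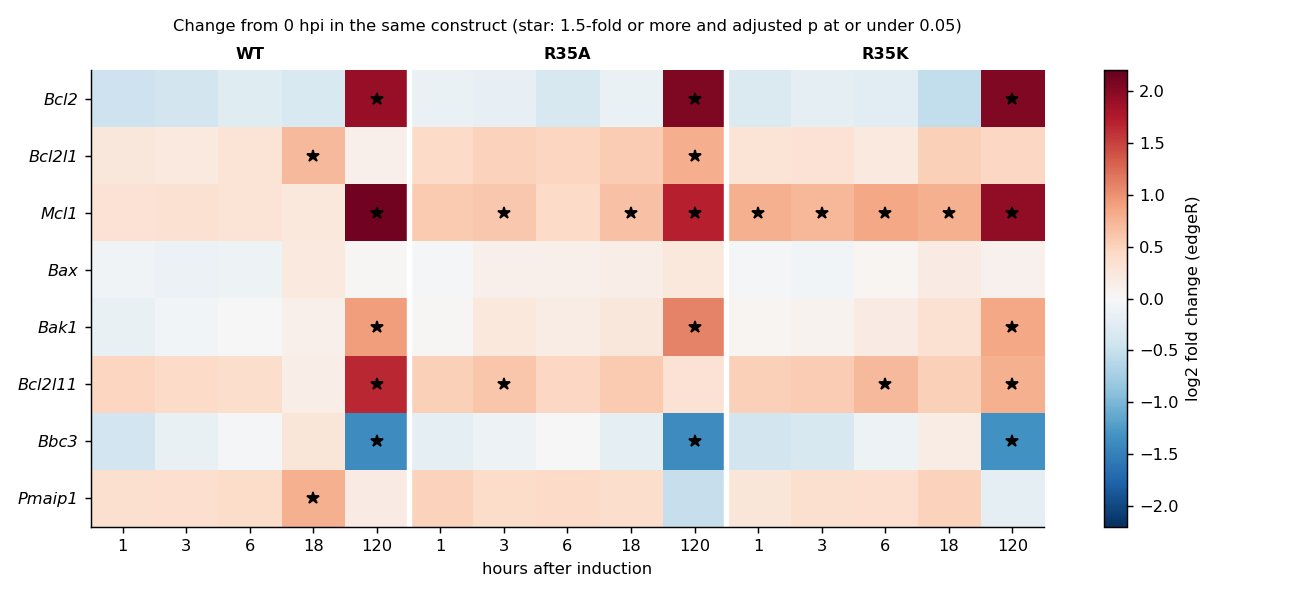
Log2 change from 0 hpi of the same construct (colour, red higher and blue lower) for 8 of the 10 genes (rows) at 1 to 120 hpi (columns) in WT, R35A and R35K cells, and stars mark changes of at least 1.5-fold with an adjusted p at or under 0.05. The Bcl2a1 genes are left out because they had 3 or fewer counts at 0 hpi, and the 120 hpi columns carry 5 stars in each construct, of which Bcl2, Mcl1, Bak1 and Bbc3 are shared.

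A further question is how the constructs differ. Before induction, 0 of the 10 genes were called between R35A and WT cells (0% of all genes), with 1 at an unadjusted p under 0.05 (Pmaip1, log2 0.15) and 0 called by DESeq2 or limma. Between R35K and WT cells 0 were called at 0 hpi (0% of all genes), with 0 at an unadjusted p under 0.05. Directly compared, R35A and WT cells differed, in the order of the times after induction, in 1 gene (19.4% of all genes), 1 gene (16.8%), 2 (13.6%), 2 (10.0%) and 3 genes (18.4%). The early calls were Bcl2a1b and Bcl2a1d and the late ones Bcl2l1, Bcl2l11 and Bcl2a1d. R35K and WT cells differed in 1 gene (15.2% of all genes), 1 gene (13.0%), 2 (14.9%), 2 (15.3%) and 2 genes (13.8%), again Bcl2a1b and Bcl2a1d early and Bcl2l11 and Bcl2a1d late. R35K and R35A cells differed in 0 genes before induction (0.00579% of all genes), with Pmaip1 at an unadjusted p of 0.03, and afterwards in 1 (8.49%), 0 (5.04%), 1 (9.18%), 2 (5.77%) and 0 genes (2.85%), all of them Bcl2a1 genes. At 3 and 120 hpi, where edgeR called 0, 5 and 6 of the 10 genes had an unadjusted p under 0.05. DESeq2 and limma were not run on the direct comparisons with R35K cells.

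By the difference in change from 0 hpi, 3 genes were called between R35A and WT cells at 120 hpi (14.2% of all genes), which were Bcl2l11, Bcl2l1 and Pmaip1, and 1 between R35K and WT cells (10.1%), which was Bcl2l11. At 1, 3, 6 and 18 hpi 0 were called between R35A and WT cells (13.9%, 12.7%, 10.1% and 8.32% of all genes) with edgeR, while 5, 5, 3 and 5 had an unadjusted p under 0.05. DESeq2 called 0 of these, and limma on the log2 values called 1 at 6 hpi (Bcl2a1b). Between R35K and WT cells 0 were called at these times with edgeR (11.9%, 10.0%, 12.2% and 13.3% of all genes) and with DESeq2, while 2, 3, 4 and 5 had an unadjusted p under 0.05, and limma called 1, 0, 2 and 2, all Bcl2a1 genes. Between R35K and R35A cells 0 were called with edgeR, DESeq2 or limma, with a background in edgeR of 5.83%, 3.02%, 5.89%, 3.44% and 1.61% of all genes over the 5 times, and 4, 4, 3, 3 and 6 had an unadjusted p under 0.05.

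The genes around the family were counted with lists of their own. Of 16 further Bcl2 family genes, 12 were tested, and by 120 hpi in WT cells 6 rose and 2 fell. This share is near the 61.8% of all genes called, 25.2% higher and 36.5% lower. The median log2 change, with Bcl2a1a and Bcl2a1c included, was 0.54 against −0.23 over all genes. Bcl2a1a and Bcl2a1c had 0 counts in WT cells at 0 hpi and passed the low-count filter only through later libraries, so they could be called only higher. Both are among the 6 that rose and pull the median up, so nothing is read from its size. They also share sequence with Bcl2a1b and Bcl2a1d. Among those that rose, Bcl2a1a went from 0 counts to 14.6 and 14.6 CPM, Bcl2a1c reached 1.51 CPM, and Bnip3, a mitophagy receptor, went from 6.87 to 26.3 CPM (log2 1.94, SE 0.11, adjusted p = 1.89e-22). Bok, a Bax-like gene, fell from 8.48 to 0.405 CPM (log2 −4.33, SE 0.33, adjusted p = 1.74e-17) and Bcl2l15 from 0.833 to 0.272 CPM. In the difference in change between R35A and WT cells at 1 hpi (13.9% of all genes called), 1 was higher and 1 lower in R35A cells. These were Bid, the BH3-only protein cut by caspase-8 (log2 0.60, SE 0.11, adjusted p = 1.13e-05), and Bmf, a BH3-only gene (−0.65, SE 0.10, adjusted p = 6.61e-07).

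Of 20 genes of caspases and the apoptosome, all tested, 6 rose and 4 fell in WT cells by 120 hpi (median log2 0.28), when 61.8% of all genes were called, 25.2% higher and 36.5% lower. Casp4 (2.89) and Casp1 (2.43), inflammatory caspases, and Casp9 (1.81), the initiator activated by the apoptosome, were the most raised, while Casp2 (−1.85) and the nuclease gene Dffb (−1.36) were among those that fell. At 1 hpi the difference in change between R35A and WT cells was called for 4 of them (13.9% of all genes), higher for Casp4 (0.79) and Casp9 (0.59) and lower for Casp2 (−1.10) and Dffa (−0.69).

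Of 20 genes of inhibitors of apoptosis and death receptor signalling, 19 were tested, and 12 rose and 3 fell in WT cells by 120 hpi (median log2 0.88, with 25.2% of all genes called higher and 36.5% lower). Naip2 (6.95) and Naip5 (6.07), sensors of bacterial proteins, and the cytokine Tnf (6.26) rose most, while the TRAIL receptor Tnfrsf10b (−3.49), its ligand Tnfsf10 (−1.31) and the adaptor Traf2 (−0.82) fell. In the difference in change between R35A and WT cells at 1 hpi (13.9% of all genes called) 4 were higher, among them Tnf (1.97), the TNF receptor gene Tnfrsf1b (0.88) and Naip2 (28.3 CPM at 1 hpi in R35A against 16.7 CPM in WT cells), and 1, Tnfsf10 (−1.33), was lower.

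The list of 20 genes of the p53 pathway holds none of the 10 members. In WT cells 11 rose and 1 fell by 18 hpi (median log2 0.61), when 46.7% of all genes were called, 50.8% of these higher. By 120 hpi 4 rose and 13 fell (median log2 −1.15, with 25.2% of all genes called higher and 36.5% lower). Perp (−8.87), Eda2r (−3.96) and Pidd1 (−3.45) fell most, and Plk3 (2.56), Dram1 (1.92) and Sesn1 (1.19) rose most. At 120 hpi 4 rose and 14 fell in R35A cells (26.5% of all genes called higher and 35.3% lower). In R35K cells 4 rose and 13 fell (26.7% and 35.5%). In the difference in change between R35A and WT cells at 1 hpi 1 was called (13.9% of all genes), Dram1 (0.74).

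Of 20 genes of cytokine receptors and the Jak/Stat5 pathway, 14 rose and 3 fell in WT cells by 120 hpi (median log2 1.46, with 25.2% of all genes called higher and 36.5% lower). The receptors of myeloid growth factors Csf1r (8.22), Csf2ra (5.34) and Csf2rb (4.77) rose most, while the stem cell factor receptor Kit (−4.72), the feedback gene Socs2 (−2.44) and the kinase Pim2 (−1.15) fell. At 1 hpi the difference in change between R35A and WT cells was called (13.9% of all genes) higher for 5 of them, among them Csf1r (2.61), Csf2rb2 (1.39) and the IL-7 receptor Il7r (0.75), and lower for Kit (−1.54), Stat5b (−1.23) and Socs2 (−0.69). Csf1r is also on the list of macrophage markers.

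The members also varied among themselves. Over the 18 group means of log2 CPM, Mcl1 and Bcl2a1b had a Pearson correlation of 0.961, and of 0.968 over the 15 groups without 120 hpi. Bcl2l1 and Pmaip1 had a correlation of 0.213 over 18 groups and 0.940 over the 15 earlier groups. Bcl2 and Mcl1 stood at 0.850 over 18 and at −0.584 over 15 groups, so there the late groups set the sign. Among genes at a mean of at least 10 CPM, the pattern most like that of Mcl1 over the 18 groups was that of Gak (r = 0.994) and Kdm7a (r = 0.994), and for Bcl2 it was Slc45a4 (0.990) and Heatr1 (0.989). Nearest to Bcl2a1b were Cyba (0.995), a subunit of the phagocyte oxidase, and Psap (0.994), and nearest to Bcl2a1d were Scarb1 (0.992) and Fam32a (0.987). For Bcl2l1 the nearest were Tns2 (0.938) and Ctnnd1 (0.936), for Bax Rexo2 (0.938) and Ccdc91 (0.886), and for Bak1 Rnf213 (0.988) and Ddx58 (0.987). For Bcl2l11 they were Gm26982 (0.908) and Dgat1 (0.902), the lowest top correlation of the 10 genes, for Bbc3 Txnl4a (0.984) and Itgb4 (0.983), and for Pmaip1 Fbxo30 (0.966) and Impact (0.961). These correlations are descriptions over groups that share the same time course.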

How the data were processed

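RNA-seq libraries were stranded, from polyadenylated RNA, read as 50 bases from 1 end. Per the labels and the study's methods, the authors used FastQC for read quality, STAR 2.5.0a for alignment to mm10 and for counting per gene, and DESeq2 1.14.1 for normalization. The deposited count tables hold raw whole-number counts of 40354 genes, and the deposited log2 tables hold log2 normalized values of 19067 genes, each recovered here as the log2 of the count over a size factor plus 1 (100% of values). The annotation release and strand column of the counts are not given in the sources used here. R35K libraries come in separate tables.

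Counts of the 36 libraries were joined by gene symbol and fitted in edgeR 4.0.16 (R 4.3.3) with a mean for each of 18 groups, TMM factors and the quasi-likelihood test, over the 17277 genes that filterByExpr kept. The total count per library was 13044456 to 23131776, the common biological coefficient of variation was 3.27%, and the median squared replicate difference was 1.07 to 2.13 times counting noise. Ratios against groups with 1 to 3 counts carry 95% exact intervals, and bounds use a floor of 3 counts summed over the group. The test was also run on simulated data of 17168 genes, of which 200 had a known change of 2-fold or more in the R35A libraries of 1 hpi. The change from 0 hpi was recovered for 195 (97.5%), with 5 false calls. The difference in change between R35A and WT libraries was recovered for 176 (88%), with 2 false calls. Smaller changes were not planted, so these rates do not cover the members' changes under 2-fold. Changes were planted only in genes above 1 CPM in R35A cells at 0 hpi, so the rates do not cover Bcl2a1b and Bcl2a1d either.

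Alternatives were DESeq2 1.42.0, edgeR with the size factors of DESeq2, all genes without the filter on low counts, a 2-fold threshold, unadjusted p, limma 3.58.1 on the deposited log2 values, a block on the replicate number, each table alone, each library left out, and the longest transcript as gene length. Replicate numbers were checked as a pairing over 9554 genes: the median correlation of replicate differences between 153 pairs of groups was −0.01, with 20 pairs over 0.1. Single pairs of groups ranged from −0.53 to 0.35. Replicates were treated as unpaired, though the median cannot show batches shared by libraries with different replicate numbers.

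Named genes are the 10 members, up to 3 genes higher and 3 lower per list (by size of log2 value among called genes whose libraries do not overlap) for WT at 120 hpi and for R35A against WT at 1 hpi, and the 2 genes nearest to each member. Of the genes this rule names, 1 is not reported here. The members and lists were chosen with earlier results of these data known. Coordinates are from GENCODE vM21 and promoter sequences from RefSeq (GRCm38.p6). Protein sequences were not used here.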

Additional observations from a re-analysis of the deposited data

Results flagged for a closer look

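At 120 hpi, 4 differences in the change from 0 hpi between constructs were called, at 1.5-fold or more with an adjusted p at or under 0.05. Others passed the adjusted p alone. For Bcl2l11 the change was lower in R35A than in WT cells by −1.34 on the log2 scale, and lower in R35K than in WT cells by −0.88. For Pmaip1 it was lower in R35A than in WT cells by −0.69, though the direct difference at 120 hpi was under 1.5-fold. For Bcl2l1 the change was higher in R35A than in WT cells by 0.69. In each case both mutant libraries at 120 hpi lay on 1 side of both WT libraries. At the same time the feeder fibroblast markers summed to 205 and 184 CPM in WT, 616 and 615 CPM in R35A and 528 and 445 CPM in R35K cells, and their part in these differences was not tested.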

How the results depend on the processing

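Of 278 counts of called genes recomputed under the alternatives other than leaving out a library, 255 stayed within 1.5 times the count reported. Of 4100 single-gene values, which take in the fits with a library left out, 20 lost their call and 32 gained one. The other 4048 kept their side of the threshold, among them 143 that changed sign (1 of them to exactly 0) while neither value was called. No called value changed sign. With a 2-fold threshold, WT at 18 hpi had 2 calls in place of 4, R35A at 3 hpi 2 in place of 4, R35K at 6 hpi 2 in place of 4, R35A against WT at 120 hpi 1 in place of 3, and the differences in change at 120 hpi 1 in place of 3 (R35A) and 0 in place of 1 (R35K). With DESeq2, with its size factors and with limma, R35A had 4 calls in place of 2 at 1 hpi (Mcl1 and Bcl2l11 added) and 5 in place of 3 at 18 hpi (Bcl2l1 and Bcl2l11 added). Without the low-count filter and with the table fitted alone, R35A at 3 hpi had 2 calls in place of 4. R35A against WT had 2 calls in place of 1 at 3 hpi with unadjusted p, DESeq2 and its size factors, and 1 in place of 2 at 18 hpi with DESeq2 and limma. Limma called differences in change where edgeR called 0: 1 at 6 hpi for R35A, and 1 at 1 hpi, 2 at 6 hpi and 2 at 18 hpi for R35K against WT. The cause of these changes was not tested, except that a stricter fold leaves fewer genes by construction.

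With 1 library left out, 195 of 204 counts stayed within 1.5 times. The count of WT at 6 hpi ranged from 0 to 2 (0 without WT replicate 2 at 0 hpi, 1 without replicate 1 at 0 hpi or replicate 2 at 6 hpi), R35A at 1 hpi from 1 to 2 (1 without R35A replicate 2 at 0 hpi or replicate 1 at 1 hpi), R35A against WT at 6 hpi from 1 to 2 (1 without WT replicate 1) and at 18 hpi from 1 to 2 (1 without WT replicate 1 or R35A replicate 2), and the difference in change of R35K against WT at 18 hpi from 0 to 1 (Mcl1, without WT replicate 2). The calls lost in these counts were of Bcl2a1b or Bcl2a1d. Replicate numbers were not used as a pairing, and the replicate block left 7 calls in WT cells at 120 hpi and changed 0 of 360 single-gene calls. Such a block cannot take up batches shared by libraries with different replicate numbers. The median of all genes moved by over 0.1 on the log2 scale without the low-count filter at 120 hpi (−0.20 to −0.14), with each table alone at 120 hpi (−0.13 and −0.12), with limma in WT cells at 18 hpi (0.12) and with DESeq2's size factors in 2 comparisons (−0.11 and 0.12), so values near the threshold at 18 and 120 hpi depend on the scaling. The Mcl1 share of the pro-survival sum was lower by 2.64 to 10.3 percentage points with the longest transcript, in 18 of 18 groups. Bcl2a1 levels up to 18 hpi rest on 1 to 97 counts a gene and library after induction.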

Other observations

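Some Bcl2 family genes outside the 10 also moved. Bid, which links death receptors to mitochondria, rose by 120 hpi from 28.1 to 78.1 CPM in WT (log2 1.48, SE 0.07, adjusted p = 2.71e-26), from 26.8 to 104 CPM in R35A (log2 1.96) and from 28.8 to 89.4 CPM in R35K cells (log2 1.63). Bad, a BH3-only gene, rose to 38.9 CPM in WT cells (log2 1.11) and rose in both mutants (log2 1.43 and 1.07). Bcl2l2, the pro-survival gene of Bcl-w, rose in WT cells from 31.8 CPM at 0 hpi to 53.1 CPM already at 1 hpi (log2 0.74, SE 0.07, adjusted p = 1.68e-14), and in R35A cells from 34.2 to 63.4 CPM (log2 0.89).

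Bmf, a BH3-only gene, differed between WT and R35A cells. At 120 hpi its mean was 33.8 CPM in WT and 12.6 CPM in R35A cells, and the difference in change was −1.37 (SE 0.12, adjusted p = 1.10e-13), with non-overlapping libraries. These genes were picked after their values were seen.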
